A study of Mus musculus with 2 samples.

Results

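Transcript levels of 5 phosphatase genes, Ptpn6 (SHP-1), Inpp5d (SHIP1), Ptpn11 (SHP-2), Ptpn22 and Ptprc (CD45), are described in mouse natural killer (NK) cells and in the few T and myeloid cells that were sorted with them. The members were matched by gene symbol, and each of the 5 was found once among the 31053 genes of the files. The study sorted CD27- and CD11b-positive NK cells, which carry 2 surface proteins that mark NK maturation, from the spleens of C57BL/6 mice of 2 genotypes. The EP3F/F control carries floxed alleles of Ptger3, the gene of the prostaglandin E2 receptor EP3, with no Cre named in its label. The NKp46CreEP3F/F knockout carries the same floxed alleles and a Cre recombinase under Ncr1, which encodes the activating NK receptor NKp46, so that both libraries share the floxed alleles and differ in the Cre. Age and sex are not given in the sources used here, and no library of Cre without floxed alleles was analysed here. Sorted cells of 2 mice were pooled into 1 droplet library per genotype. No value has a replicate, no test was possible, and each interval below is a 95% interval that covers counting error only. A genotype difference and any other difference between the libraries cannot be told apart.

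NK cells carry inhibitory receptors, among them the Ly49 family and NKG2A, whose tails hold tyrosine motifs (ITIMs) that are phosphorylated when the receptor meets MHC class I. Those motifs recruit SHP-1, SHP-2 or SHIP1. SHP-1 and SHP-2 are tyrosine phosphatases with paired SH2 domains, and SHP-1 is known for dephosphorylating signalling proteins such as Vav1 below activating receptors. SHIP1 removes the 5-phosphate of the lipid that PI3K makes. Ptpn22 encodes a cytoplasmic tyrosine phosphatase that acts with the kinase Csk on Src-family kinases. CD45 differs from the rest in its position: it is an abundant transmembrane phosphatase of all leukocytes, and by removing an inhibitory phosphate it also keeps Src-family kinases ready to signal. The grouping as inhibitory phosphatases therefore rests on this background and not on the measurements, which are of RNA.

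The control library held 11785 barcodes and 69853026 unique molecular identifiers (UMIs, counted RNA molecules), and the knockout library 10615 barcodes and 42795121 UMIs. Of the barcodes kept, 95.1% in the control and 91.1% in the knockout passed a gate on 6 NK marker genes. The gate allowed at most 1 UMI each of macrophage, MHC class II and B cell genes, and left out cells of the T gate described below. That left 10394 and 9133 NK-gated cells with medians of 5828.5 and 3827.0 UMIs. The libraries shared 33 barcode sequences. Ptger3, the targeted gene, had 12 UMIs in control and 0 in knockout NK-gated cells, too few to check the labels firmly, and whether its 3' tags lie in the deleted part is not given in the sources used here. All 6 NK markers were present in both libraries. The gate was set on these genes and limits T, macrophage and B cell UMIs. The levels of those markers in NK-gated cells therefore do not measure purity. The summed level of 10 T markers in NK-gated cells was 106 counts per 1000000 UMIs (CPM) in the control, with Cd3e at 0, and 127 CPM in the knockout. Macrophage markers summed to 2.77 and 6.97 CPM, B cell markers to 1.17 and 2.05 CPM, haemoglobin genes to 24.1 and 103 CPM and division markers to 51.4 and 30.2 CPM. The gate does not limit haemoglobin genes. Nor does it limit markers of monocytes (501 and 411 CPM), platelets (10.9 and 13.5 CPM) or neutrophils (2.24 and 8.78 CPM). Levels here are UMI sums over all cells of a population, per 1000000 UMIs, and are not compared between genes. In sums of this kind, fewer cells with a transcript and less RNA per cell cannot be told apart.

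Positions follow the GENCODE annotation of GRCm38. Ptpn6 (ENSMUSG00000004266) lies on chromosome 6 from 124720707 to 124738714 on the minus strand, Ptprc (ENSMUSG00000026395) on chromosome 1 from 138062861 to 138175708 on the minus strand, and Ptpn11 (ENSMUSG00000043733) on chromosome 5 from 121130533 to 121191397 on the minus strand. Inpp5d (ENSMUSG00000026288) spans 87620312 to 87720507 of chromosome 1 and Ptpn22 (ENSMUSG00000027843) 103859795 to 103912247 of chromosome 3, both on the plus strand. All 5 are protein-coding genes, and the counts are of whole genes. Exons of Ptpn6 overlap those of Gm20531 on the opposite strand by 195 bases. Gm20531 had 6 control and 2 knockout UMIs in NK-gated cells, against 5467 and 1493 for Ptpn6.

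The sequences just before the start sites of Ptpn6 and Ptpn22 are shown because these genes had the largest and the smallest difference between the libraries. Both are 250-base windows from RefSeq on GRCm38.p6, 5′ to 3′ on the gene's strand, at chr6:124738710-124738959 for Ptpn6 and chr3:103859545-103859794 for Ptpn22. Capitals mark GGAAGT or its reverse complement ACTTCC, a core bound by ETS-family factors, which was chosen after the windows had been read.
Ptpn6: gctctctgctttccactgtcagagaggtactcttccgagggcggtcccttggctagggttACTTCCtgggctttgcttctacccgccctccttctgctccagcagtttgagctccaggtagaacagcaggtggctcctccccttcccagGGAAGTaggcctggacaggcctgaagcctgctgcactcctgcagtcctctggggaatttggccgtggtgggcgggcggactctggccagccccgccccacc
Ptpn22: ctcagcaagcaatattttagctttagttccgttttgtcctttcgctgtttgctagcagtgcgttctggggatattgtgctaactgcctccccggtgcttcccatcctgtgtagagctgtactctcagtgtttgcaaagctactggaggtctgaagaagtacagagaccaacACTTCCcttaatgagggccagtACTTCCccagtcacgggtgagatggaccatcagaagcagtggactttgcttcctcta
Each window holds 2 matches on either strand, and 19.7% of 32851 windows of the same length hold at least 1. Searches on both strands for another ETS core (CCGGAA), a RUNX core (TGTGGT) and a T-box core (GGTGTG) found none in either window. Ptpn22 has a further start site in RefSeq, whose window at chr3:103860027-103860276 holds 2 matches to the RUNX core and 0 to GGAAGT.

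In NK-gated cells, 4 of the 5 genes were lower in the knockout library by a log2 ratio of at least 0.32, the size used here to call a gene higher or lower, and 29.1% of the 7333 measured genes were lower by that mark. A gene counted as measured when its mean over the libraries was at least 10 CPM. None of the 5 was higher, against 14.9% of measured genes. The median log2 ratio of the 5 was -0.43 and that of all measured genes -0.07. Scaling by the median of ratios instead of the total changes the shares of measured genes to 24.9% lower and 19.6% higher, and leaves 3 members lower.

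Ptpn6 had the largest difference of the 5. Its level was 82.9 CPM in the control (interval 80.7 to 85.1) and 38.8 CPM in the knockout (36.9 to 40.8), a log2 ratio of -1.09 (-1.18 to -1.01). Only 1.51% of measured genes had a ratio as low or lower. Thinned to 2000 UMIs per cell, which leaves out 153 control and 198 knockout cells, a Ptpn6 UMI was found in 13.9% of cells in the control (13.2 to 14.6) and in 6.99% in the knockout (6.47 to 7.54). Without thinning the shares were 34.8% and 13% at the different depths of the libraries. Since leukocytes in general carry these 5 transcripts, no cell type in the files gives a share for free RNA.

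Ptprc was at 2464 CPM in the control (2452 to 2476) and at 1359 CPM in the knockout (1347 to 1371), a log2 ratio of -0.86 (-0.87 to -0.84) that 4.62% of measured genes reached or passed. Nearly every NK-gated cell still held the transcript: 98.8% of control and 91.4% of knockout cells at 2000 UMIs.

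Ptpn11 and Inpp5d differed less. Ptpn11 was at 49.5 CPM in the control (47.8 to 51.2) and 36.8 CPM in the knockout (34.9 to 38.7), a log2 ratio of -0.43 (-0.52 to -0.34), and 9.76% and 7.02% of thinned cells held a UMI. Inpp5d was at 115 CPM (113 to 118) and 91.5 CPM (88.5 to 94.6), a log2 ratio of -0.33 (-0.39 to -0.27), with 21.2% and 16.5% of thinned cells. The Inpp5d value sits at the mark, with 28.3% of measured genes as low or lower, and the call is lost with a stricter NK gate (-0.29) or median-of-ratios scaling (-0.26).

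Ptpn22 was the member nearest to equal in the libraries. It had 224 CPM in the control (220.3 to 228) and 204 CPM in the knockout (199 to 208), a log2 ratio of -0.14 (-0.17 to -0.10), and 35.4% and 32.8% of thinned cells held a UMI.

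**Figure D1:**
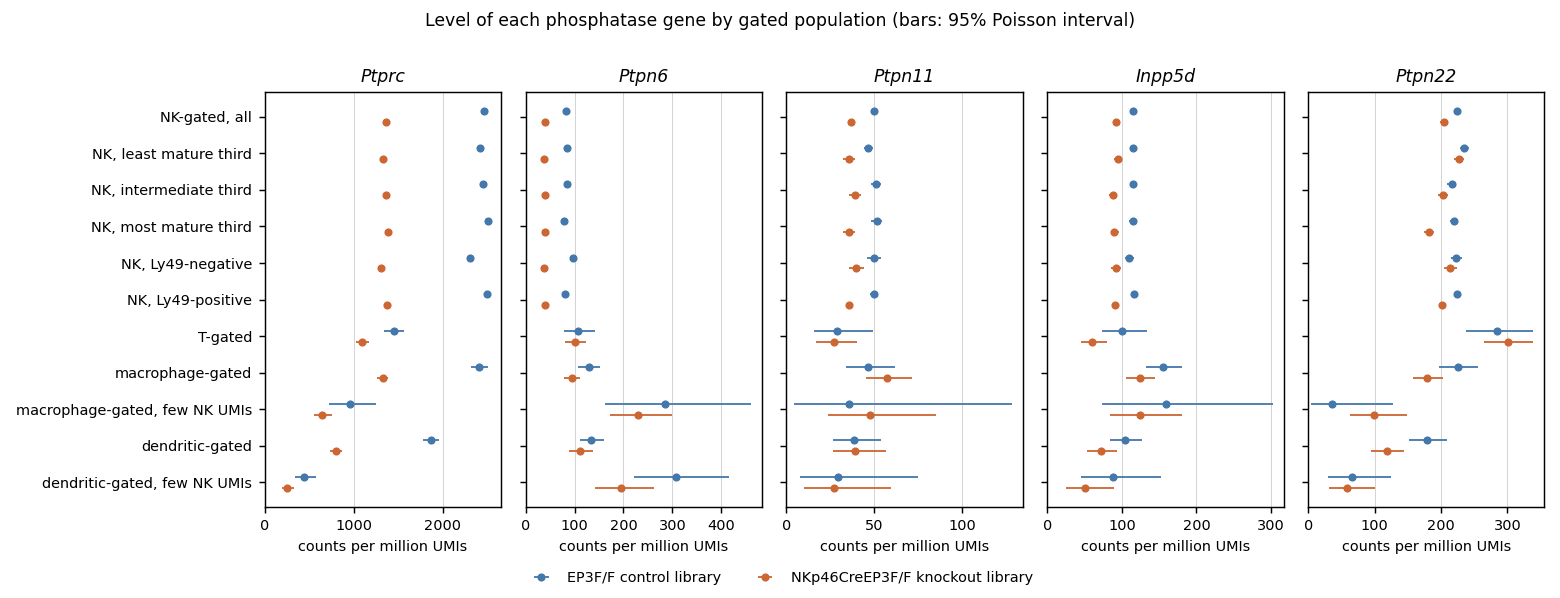
Level of each of the 5 genes (x axis, CPM, each panel on its own linear scale from 0) in NK-gated cells, their maturation and Ly49 subsets, and T-, macrophage- and dendritic-gated cells (y axis). Points are the control (blue) and knockout (orange) libraries and bars are 95% Poisson intervals; "few NK UMIs" means at most 1 NK marker UMI per cell, and Ptpn6 stands at 284 and 229 CPM in such macrophage-gated cells against 82.9 and 38.8 CPM in NK-gated cells.

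Genes as long as the longer members were in general lower in the knockout library, and the members differ in length. The summed exon length is 18313 bases for Ptprc, 7602 for Inpp5d, 7492 for Ptpn11, 6775 for Ptpn22 and 2802 for Ptpn6. It joins the exons of every annotated transcript of a gene, so it can exceed the length of the transcripts that the cells make. Among the 300 measured genes nearest in length to Ptprc the median log2 ratio was -0.54 and 72.3% were lower by the mark. Of these genes 15.3% had a ratio as low as that of Ptprc or lower. For Ptpn11 and Inpp5d the medians of the nearest genes were both -0.28, with 48.0% and 46.0% lower. Ptpn6 stood apart from genes of its length, whose median was 0.14 and of which 9.0% were lower and 1.33% were as low as Ptpn6.

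With the median of the nearest genes subtracted, the log2 ratio was -1.24 for Ptpn6, -0.32 for Ptprc (just short of the mark before rounding), -0.14 for Ptpn11, -0.05 for Inpp5d and 0.08 for Ptpn22. By this measure of length, Ptpn6 alone of the 5 then passed the mark. The share of measured genes that passed it after the adjustment is not given here. For Ptprc the call depends on which genes count as its equals in length. The part of transcript length or RNA quality in the differences was not tested. With every cell thinned to 2000 UMIs, Ptpn6 was at -1.04 and Ptprc at -0.85.

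**Figure D2:**
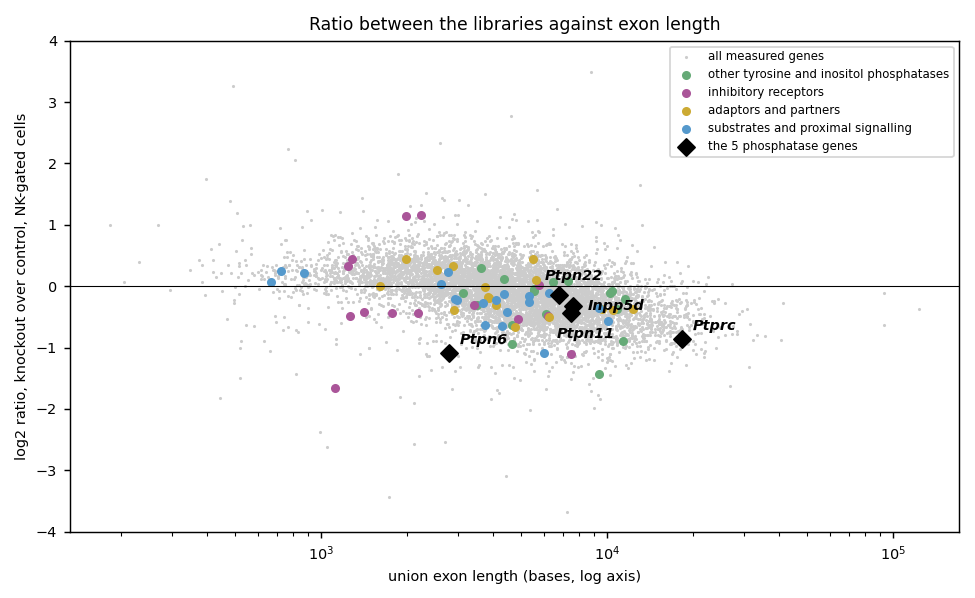
Log2 ratio of knockout over control in NK-gated cells (y axis) against summed exon length in bases (x axis, log scale) for all measured genes (grey), genes of 4 pathway lists (coloured) and the 5 phosphatase genes (black diamonds). Ptprc, at -0.86, and Ptpn6, at -1.09, both lie below most genes of their length. Of the 300 nearest in length, 15.3% were as low as Ptprc or lower and 1.33% as low as Ptpn6 or lower.

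NK-gated cells were ordered by the level of 11 genes of mature NK cells less that of 11 genes of immature NK cells, in cells thinned to 2000 UMIs, and cut within each library into 3 equal groups. The score is a range and not a set of cell types: 15.3% of control and 14.6% of knockout cells lay within 0.1 SD of a cut. The most mature group had medians of 5431.0 and 3669.0 UMIs per cell, against 6258.0 and 4030.5 in the least mature. No member was higher or lower by the mark between the most and least mature groups, where 2.66% of measured genes were higher and 3.12% lower in the control, and 4.24% and 4.69% in the knockout.

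Ptpn6 across the groups, from least to most mature, was at 85.2, 84.3 and 79.0 CPM in the control and at 37.4, 39.7 and 40.0 CPM in the knockout. The log2 ratio of most over least mature was -0.11 (-0.20 to -0.01) in the control and 0.10 (-0.09 to 0.28) in the knockout, so the ends differed little in either library. Ptprc was at 2422, 2459 and 2515 CPM in the control and at 1328, 1367 and 1385 CPM in the knockout, log2 ratios of 0.05 and 0.06. Inpp5d was level in the control, at 115 CPM in each group. Ptpn11 went from 46.5 to 51.3 CPM in the control (0.14, interval 0.02 to 0.27) and was at 35.4 CPM at both ends in the knockout.

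Ptpn22 had the widest spread along the score in the knockout, but not in the control, where Ptpn11 had the largest ratio in size (0.14). In the knockout it stood at 227, 203 and 182 CPM from least to most mature, a log2 ratio of -0.32 (-0.40 to -0.24) just short of the mark before rounding, and in the control at 235, 216 and 219.9 CPM, a ratio of -0.10 (-0.15 to -0.04). The knockout ratio lay between -0.29 and -0.41 under the other score settings and gates.

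Knockout against control, the members kept their order of differences within each maturation group. The groups were cut within each library and do not match in state: from least to most mature, the genes of mature NK cells summed to 2846, 3872 and 5302 CPM in the control and 1853, 2883 and 4571 CPM in the knockout. Those of immature NK cells summed to 3614, 2264 and 1434 CPM and to 4619, 2953 and 1704 CPM. The part of this shift in the ratios of each group was not tested. Ptpn6 was lower by a log2 ratio of -1.19 (-1.33 to -1.04) in the least mature cells, -1.09 (-1.23 to -0.95) in the intermediate and -0.98 (-1.13 to -0.84) in the most mature. Ptprc was at -0.87, -0.85 and -0.86. Ptpn11 was at -0.39, -0.39 and -0.54, Inpp5d at -0.28, -0.38 and -0.35, and Ptpn22 at -0.05, -0.09 and -0.27. The intervals of neighbouring groups overlap for Ptpn6, Ptprc, Ptpn11 and Inpp5d. For Ptpn22 the intermediate (-0.16 to -0.02) and most mature (-0.35 to -0.20) groups do not overlap, although whether they differ was not tested.

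**Figure D3:**
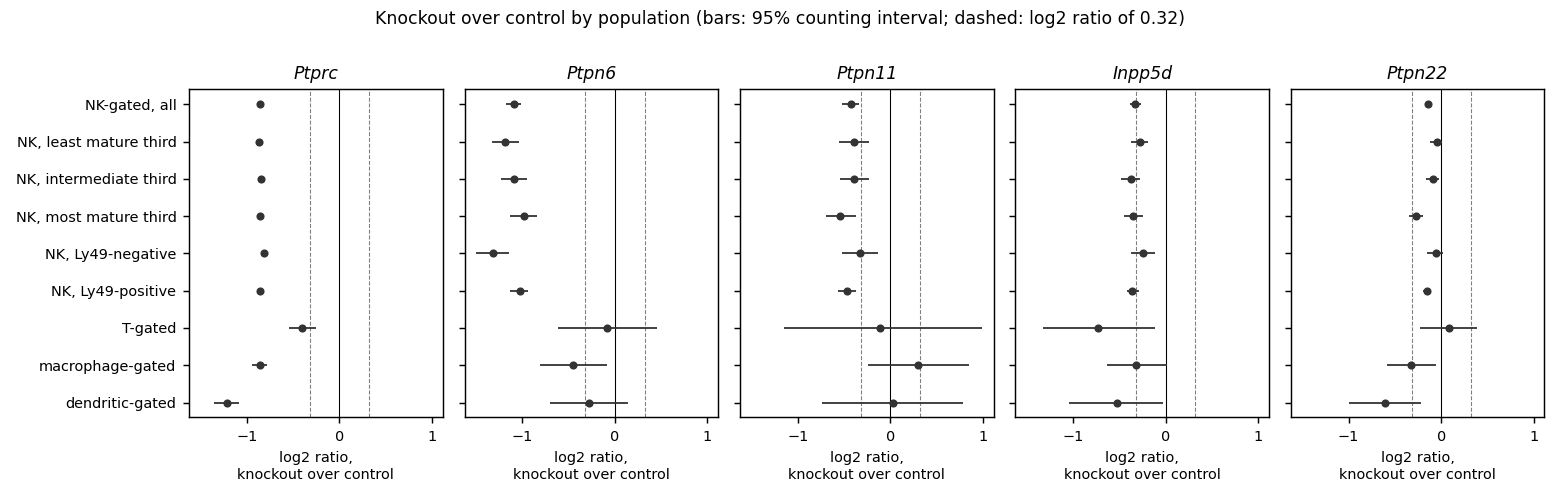
Log2 ratio of knockout over control (x axis) for each gene in NK-gated cells, their subsets and the other gates (y axis), with 95% counting intervals and dashed lines at a log2 ratio of 0.32 in either direction. Ptpn6 lies between -1.32 and -0.98 in every NK subset shown and at -0.09 in T-gated cells.

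Cells with a UMI of any of 6 genes of inhibitory Ly49 receptors (Klra1, Klra3, Klra5, Klra6, Klra7 and Klra9) in thinned cells were set against cells with none. A cell without such a UMI may still carry the receptor. There were 8296 positive and 1945 negative cells in the control, and 6933 and 2002 in the knockout. Between them 0.698% of measured genes were higher and 0.821% lower in the control, and 1.59% and 1.85% in the knockout. None of the 5 members passed the mark in either library. Gated on all UMIs in place of thinned cells, Ptpn6 passed it in the control, at -0.46.

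Ptpn6 was the member with the largest difference by Ly49 in the control, at 79.9 CPM in positive and 96.2 CPM in negative cells, a log2 ratio of -0.27 (-0.36 to -0.17). Within the maturation groups of the control the ratio was -0.30, -0.30 and -0.15 from least to most mature. In the knockout Ptpn6 stood at 39.1 CPM in positive and 38.6 CPM in negative cells, a ratio of 0.02 (-0.16 to 0.20). Its direction differed between the maturation groups of the knockout. Positive and negative cells had 35.5 and 41.5 CPM in the least mature group, 40.9 and 34.3 CPM in the intermediate and 40.4 and 38.0 CPM in the most mature. The intervals of each pair overlap. The knockout over control ratio of Ptpn6 was thus -1.03 (-1.13 to -0.94) in positive and -1.32 (-1.50 to -1.14) in negative cells, with intervals that do not overlap; the difference between them has no test. Ptprc was slightly higher in Ly49-positive cells, at 2499.6 against 2307 CPM in the control (0.12) and 1373 against 1311 CPM in the knockout (0.07). For Ptpn11, Inpp5d and Ptpn22 the ratios were 0.00, 0.09 and 0.01 in the control and -0.15, -0.02 and -0.08 in the knockout.

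NKG2A (Klrc1) and Ly49C and Ly49I (Klra3 and Klra9) are the inhibitory receptors that bind MHC class I molecules of C57BL/6 mice. In the control 7158 cells had a UMI of any of the 3 genes and 3083 had none, against 7428 and 1507 in the knockout. The split thus differed between the libraries, and its part in the ratios was not tested. Cells with a UMI of any of the 3 genes had 76.8 CPM of Ptpn6 in the control against 97.2 CPM in the rest, a log2 ratio of -0.34 (-0.42 to -0.26). Ptpn6 was the only member lower by the mark in that comparison, where 0.260% of 7305 measured genes were lower and 0.712% higher. In the knockout the levels were 37.7 and 45.4 CPM, a ratio of -0.27 (-0.45 to -0.08; -0.33 and past the mark when gated on all UMIs), where 1.01% of measured genes were lower and 3.47% higher. The other 4 members had ratios between -0.10 and 0.07 in the control and between -0.02 and 0.10 in the knockout.

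Split by receptor, Ptpn6 did not move alike with all of them. Cells with a Klra9 UMI had 72.4 CPM against 88.9 CPM without in the control (-0.30, interval -0.38 to -0.21), and 35.8 against 41.4 CPM in the knockout (-0.21, -0.36 to -0.06). Klrc1 gave 75.5 against 86.6 CPM in the control (-0.20, -0.28 to -0.11) and 33.8 against 44.6 CPM in the knockout (-0.40, -0.55 to -0.25). For both receptors positive cells had the lower level in both libraries. Klra3 gave opposite signs in the libraries, -0.13 (-0.22 to -0.04) in the control and 0.22 (0.06 to 0.37) in the knockout.

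The activating receptors Ly49D (Klra4) and Ly49H (Klra8), which signal through the adaptor DAP12, went with equal or higher Ptpn6. Klra4-positive cells had 84.5 against 80.6 CPM in the control (0.07, -0.01 to 0.15) and 43.5 against 35.2 CPM in the knockout (0.30, 0.16 to 0.45). Klra8 gave 0.09 (0.01 to 0.17) and 0.00 (-0.15 to 0.15). Some inhibitory receptors gave values like these. Klra7 (Ly49G) was at 0.05 (-0.03 to 0.13) in the control and 0.17 (0.01 to 0.32) in the knockout. Klra6 (Ly49F) was at 0.15 (-0.06 to 0.36) and, from 22 UMIs in positive cells, at 0.40 (-0.28 to 1.0), and Klrg1 at -0.03 (-0.16 to 0.10) and 0.31 (0.04 to 0.57). Klra5 went opposite to Klra9 and Klrc1 in the control. Ptpn6 was at 118 CPM (94.6 to 145, from 89 UMIs) in Klra5-positive and 82.5 CPM (80.3 to 84.8) in negative cells. In the knockout the levels were 32.7 CPM (14.1 to 64.5, from 8 UMIs) and 39.0 CPM (37.1 to 41.1), whose intervals overlap. For Klra1 they were 84.2 and 82.8 CPM in the control, and 35.9 and 39.3 CPM in the knockout. Klra5 left out, Ptprc moved by at most 0.08 in size with any of the 9 receptors examined, in either library. Klra3 and Klra9 are close in sequence, so that their reads could be split between them in the counting.

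**Figure D4:**
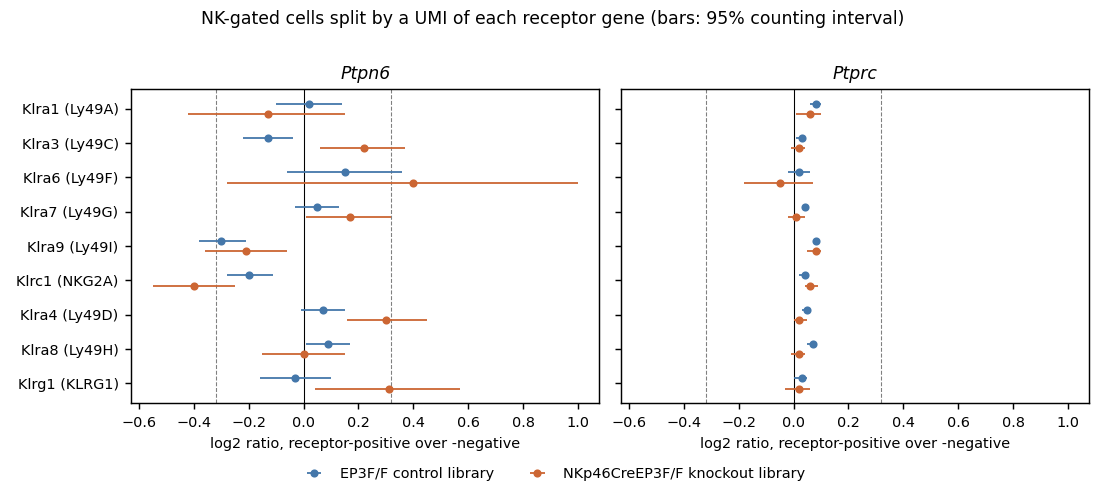
Log2 ratio of receptor-positive over receptor-negative NK-gated cells (x axis) for Ptpn6 and Ptprc, by receptor gene (y axis), in the control (blue) and knockout (orange) libraries, with 95% counting intervals and dashed lines at a log2 ratio of 0.32 in either direction. Ptpn6 lies to the left of 0 for Klra9 and Klrc1 in both libraries, and Ptprc stays within 0.08 of 0 for every receptor.

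T cells were gated on CD3, CD5, CD6, CD4 and CD8 genes, which gave 62 control and 159 knockout cells. They are not free of NK transcripts: the 6 NK markers summed to 1957 and 2239 CPM there, against 6136 and 6734 CPM in NK-gated cells. Ptpn6 and Ptpn22 were the 2 members higher than in NK-gated cells in both libraries, and 2 were lower in each (Ptprc and Ptpn11 in the control, Ptpn11 and Inpp5d in the knockout), where 19.3% of measured genes were higher and 37.5% lower in the control, and 18.1% and 29.6% in the knockout. Ptpn6 was at 107 CPM in control T-gated cells (78.7 to 142) and 100.1 CPM in knockout T-gated cells (80.1 to 124), a log2 ratio over NK-gated cells of 0.37 (-0.08 to 0.77) and 1.37 (1.04 to 1.68). The control interval takes in 0. The intervals of the T-gated levels overlap, and the knockout over control ratio of Ptpn6 was -0.09, whose interval (-0.62 to 0.45) does not overlap that of NK-gated cells. That difference has no test, and in T-gated cells with few NK UMIs the ratio was -0.40 (-1.63 to 0.90).

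Ptpn22, known for its part in T cell receptor signalling, was at 285 and 300.3 CPM in T-gated cells, 0.35 (0.08 to 0.60) and 0.56 (0.37 to 0.74) above NK-gated cells. Ptprc was lower than in NK-gated cells, at 1448 and 1099 CPM (-0.77 and -0.31). Ptpn11 stood at 28.9 and 26.8 CPM, from 13 and 23 UMIs, and Inpp5d at 100.1 and 60.5 CPM. In the 12 control and 32 knockout T-gated cells with at most 1 NK marker UMI, Ptpn6 rested on 10 and 16 UMIs (137 and 104 CPM), and Ptpn22 was no longer above NK-gated cells, at 137 and 195 CPM.

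The macrophage gate, on C1q genes, Csf1r, Vcam1 and 4 further markers, took 177 control and 356 knockout cells. Most of them also held NK transcripts: 75.1% and 57.9% had a UMI of Ncr1, and Gzma, an NK granule protease, stood at 6511 and 5923 CPM against 7950.0 and 9730.1 CPM in NK-gated cells. The cells with at most 1 NK marker UMI, 37 and 130 in number, are therefore given beside the whole gate. In those Gzma was at 159.6 and 117 CPM, all 9 macrophage markers were present, and the median depth was 1200.0 and 1409.5 UMIs.

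Ptpn6 was higher in the macrophage gate than in NK-gated cells, at 129 CPM (108 to 153) and 94.7 CPM (79.2 to 112), log2 ratios of 0.64 and 1.29. In the cells with few NK UMIs it reached 284 CPM (162 to 461, from 16 UMIs) and 229 CPM (172 to 299.8, from 53 UMIs), log2 ratios of 1.78 (0.97 to 2.48) and 2.56 (2.14 to 2.96). Inpp5d was also higher in the whole gate, at 155 and 124 CPM (0.43 and 0.44), and with few NK UMIs at 159.6 and 125 CPM, where the intervals of the ratios take in 0. Ptpn11 was at 57.1 CPM in the knockout (0.63) and at 46.3 CPM in the control (-0.09). In the whole gate 2 members were higher by the mark in the control, 3 in the knockout and 0 lower in either, and 19.5% of measured genes were higher and 10.2% lower than in NK-gated cells in the control, and 23.9% and 16.9% in the knockout.

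Ptprc and Ptpn22 changed place when cells with NK UMIs were left out. Ptprc was at 2409.8 and 1325 CPM in the whole macrophage gate, level with NK-gated cells (-0.03 and -0.04), but at 958 and 649 CPM in the cells with few NK UMIs (-1.36 and -1.07). Ptpn22 went from 225 and 179 CPM to 35.5 CPM, from 2 UMIs, and 99.5 CPM, from 23.

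The dendritic gate was on the MHC class II genes H2-Aa, H2-Ab1 and H2-Eb1, with at most 1 macrophage and 1 B cell UMI per cell. All 9 dendritic markers were present. The gate took 181 control and 196 knockout cells. Of these, 56.9% and 41.8% held a UMI of Ncr1. Ptpn6 was the 1 member higher than in NK-gated cells in both libraries, at 134 CPM (111 to 161) and 111 CPM (88.1 to 137), log2 ratios of 0.69 and 1.51. In each library 3 members were lower: Ptprc and Ptpn22 in both, with Ptpn11 in the control and Inpp5d in the knockout. With at least 1000 genes and at most 5% mitochondrial UMIs per cell the 4 calls of the control were lost, with Ptpn6 at 0.30, while Ptpn6 stayed higher in the knockout (1.16). Among measured genes 12.5% were higher and 29.4% lower in the control, and 14.4% and 46.1% in the knockout. In the 73 and 97 cells with at most 1 NK marker UMI, with medians of 1617.0 and 1930.0 UMIs, Ptpn6 was at 307 CPM (221 to 415) and 195 CPM (141 to 263), log2 ratios of 1.89 and 2.33. Gzma was at 249 and 99.8 CPM in them.

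Ptprc had its lowest level of all the gates in these cells, at 446 and 254 CPM, against 1870.2 and 801 CPM in the whole dendritic gate. Ptpn22 was lower as well, at 65.9 and 58.9 CPM. The order of Ptpn6 in the control was thus dendritic- and macrophage-gated cells with few NK UMIs, whose intervals overlap, then the whole dendritic, macrophage and T gates, whose intervals also overlap, then NK-gated cells, whose interval overlaps that of T-gated cells only. For Ptprc the order ran from NK-gated and all macrophage-gated cells, whose intervals overlap, through the whole dendritic gate and T-gated cells down to macrophage- and then dendritic-gated cells with few NK UMIs.

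Outside NK-gated cells, the knockout over control ratios of Ptpn6 were nearer 0 and had wider intervals. Ptpn6 was at -0.45 (-0.81 to -0.09) in the macrophage gate and -0.28 (-0.70 to 0.14) in the dendritic gate. These gates mix cells with few and with more NK UMIs. In cells with 2 or more NK UMIs, Ptpn6 was at 120.1 CPM in the control and 67.7 CPM in the knockout for the macrophage gate. The levels there were 103 and 75.0 CPM for the dendritic gate, and 101 and 99.3 CPM for the T gate. In the cells with few NK UMIs the ratios were -0.40 (-1.63 to 0.90) for T-gated, -0.31 (-1.14 to 0.60) for macrophage-gated and -0.66 (-1.30 to -0.01) for dendritic-gated cells, whose intervals reach into that of NK-gated cells. A difference from NK-gated cells was thus not detectable at this depth in those cells. The make-up of the gates also differed between the libraries. From control to knockout, macrophage markers in the macrophage gate went from 2477 to 6416 CPM, dendritic markers from 407 to 1699 CPM and NK markers from 5352 to 4473 CPM. In dendritic-gated cells with few NK UMIs, platelet markers went from 7.32 to 381 CPM. The part of these shifts in the ratios was not tested. Ptprc was lower in every gate, at -0.40 (-0.54 to -0.25) in T-gated, -0.86 (-0.95 to -0.78) in macrophage-gated and -1.22 (-1.36 to -1.09) in dendritic-gated cells. The median log2 ratios of all measured genes in these gates were -0.03, -0.08 and -0.20. With few NK UMIs, Ptprc was at -0.83 (-1.20 to -0.45), -0.56 (-1.02 to -0.09) and -0.81 (-1.36 to -0.27) in the same order. In those cells the medians of all measured genes were also below 0, at -0.35, -0.42 and -0.18. By the mark, 51.5%, 51.9% and 43.8% of measured genes were lower there.

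By the mark, 2 members were lower in T-gated cells (Ptprc and Inpp5d), where 32.6% of measured genes were lower. There were 3 in macrophage-gated cells (Ptprc, Ptpn6 and Ptpn22), against 32.7% of measured genes, and 3 in dendritic-gated cells (Ptprc, Inpp5d and Ptpn22), against 43.0%. None was higher in these 3 gates, where 28.6%, 22.5% and 18.9% of measured genes were.

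The other genes of the pathway were described from 4 lists, on the same ratio of knockout over control in NK-gated cells. Of all measured genes 14.9% were higher and 29.1% lower by the mark, which is the background for each list. Of 30 genes of inhibitory receptors 14 were measured, with 4 higher and 8 lower and a median log2 ratio of -0.43 (-0.38 adjusted for length). Klrc1 (NKG2A) was higher in the knockout, at 289.8 CPM in the control and 643 CPM in the knockout (1.15), as was Klrb1b, an inhibitory receptor of the NKR-P1 family, at 83.8 and 187 CPM (1.16). Klra6 (Ly49F) was lower, at 21.6 and 6.84 CPM (-1.66), as was Lair1, a collagen receptor with ITIMs, at 31.3 and 14.5 CPM (-1.11). Receptors that recruit these phosphatases were found in both directions while Ptpn6 was lower. Of the 3 genes for receptors of C57BL/6 MHC class I used above, all were higher in the knockout, with Klra9 at 0.44 and Klra3 at 0.33. Adjusted for length they were at 0.24 and 0.11, short of the mark, and Klrc1 was at 0.92.

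Of 27 other tyrosine and inositol phosphatases 17 were measured. By the mark 6 were lower and 0 higher, and the median was -0.11 (0.06 adjusted for length). The largest differences were those of Ptp4a3 (PRL-3), at 106 and 39.4 CPM (-1.43), Inpp5b, a 5-phosphatase like SHIP1, at 44.9 and 23.4 CPM (-0.94), Ptpn4, at 93.0 and 49.7 CPM (-0.90), and Ptpn9, at 28.6 and 18.4 CPM (-0.64). The other 11 of the 17 stayed within the mark, and the share that was lower is near the 29.1% of all measured genes.

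Adaptors and partners counted 16 measured genes of 21, with 3 higher and 6 lower and a median of -0.19 (-0.04 adjusted). Dgka and Dgkz, kinases that remove diacylglycerol, were at -0.67 (62.8 and 39.4 CPM) and -0.50 (104 and 74.0 CPM). Sh2d1a (SAP), an adaptor of SLAM-family receptors that competes with SHP-1 and SHIP1 for their tails, was higher at 259.6 and 355 CPM (0.45), as was Dok1, an adaptor, at 19.1 and 26.1 CPM (0.45). Substrates and proximal signalling genes counted 19 measured of 22, with 0 higher and 6 lower and a median of -0.22 (-0.13 adjusted). The share lower in these last 2 lists is not far from the 29.1% of all measured genes. Vav3, a guanine nucleotide exchange factor, was at 26.9 and 12.6 CPM (-1.09), Plcg2 at 44.5 and 28.4 CPM (-0.65), Tec, a kinase, at 39.8 and 25.5 CPM (-0.64) and Pik3r1, the regulatory subunit of PI3K, at 396 and 266 CPM (-0.57).

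Last, each member's profile was compared with those of 2347 genes over 18 points, the 6 NK groups by maturation and Ly49 and the 3 other gates in each library, centred within the library. Points of a library share its depth and preparation, and the T and myeloid gates set much of each correlation, so the values are descriptions. The genes most like Ptpn6 were Romo1, a mitochondrial membrane protein (Pearson r 0.91), St13, a chaperone cofactor (0.88), and Slc25a5, a mitochondrial nucleotide carrier (0.86). Of these St13 was lower in the knockout NK-gated cells (-0.92), and Romo1 and Slc25a5 were near equal (0.02 and 0.06). Ptprc was most like Esyt1 (0.97), Elk3 (0.97) and Fyn, a Src-family kinase (0.96), and its r with Ptpn6 was -0.62. Ptpn22 was most like Prrc2c (0.98), Arhgap15 (0.97) and Trbc1, a T cell receptor constant gene that NK cells also transcribe (0.97). For Ptpn11 the nearest were Nars (0.90), Hnrnph2 (0.88) and Atp6v1e1 (0.88), and for Inpp5d they included AB124611 (0.93) and Colgalt1 (0.91).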

How the data were processed

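The deposited matrices hold raw UMI counts per gene and barcode, without normalization, from a 3' v2 kit per the labels. The submitters' processing notes name Cell Ranger 3.0.0, STAR, Seurat and the build GRCm39, and whether counting used strand is not given in the sources used here. Of 31053 gene IDs, 30934 matched GENCODE M21 (GRCm38), used for positions and exon lengths only.

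Barcodes under 500 genes or over 10% mitochondrial UMIs were left out. Cells were gated on marker UMIs (NK, T, macrophage and dendritic: at least 3 UMIs from at least 2 genes, at most 1 UMI of some other lineages), with 114 control and 179 knockout cells in no gate. Gate cutoffs were set after the data were seen. No doublet caller was run. Droplets with more than 1 UMI of macrophage, MHC class II or B cell genes fall outside the NK gate, as do T-gated cells. Platelet, erythroid, neutrophil and monocyte UMIs were not limited there, so such mixed droplets can remain. Counts were summed per population and given as counts per 1000000 UMIs, with exact Poisson intervals, exact conditional binomial intervals for ratios and Clopper-Pearson intervals for shares. The scripts ran in Python 3.11.15 with pandas 2.3.3, matplotlib 3.10.9, scipy 1.17.1 and numpy 2.4.6, and the ratios were tested on simulated data.

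The members and lists were chosen with earlier results of these data known. Named were the members, Ptger3, Ncr1, up to 4 genes per pathway list with the largest ratio in size among those of at least 10 CPM, and the 3 genes of at least 50 CPM most correlated with each member in log2(CPM + 1). For Inpp5d, 1 of these genes is not reported here. Klra3, Klra4, Klra8 and Klra9 were added as gate or receptor genes, and Gzma and Gm20531 as checks, after their values were seen. Alternatives covered filters, gates, scaling, thinning and exon length.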

Additional observations from a re-analysis of the deposited data

How the results depend on the processing

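No paired analysis was possible because each genotype is 1 library, and for the same reason leaving out a library was not run. Every interval covers counting error alone, and T and myeloid values rest on few cells. Over all alternatives, 184 ratios of single members stayed within their counting interval, 57 moved past it and 4 turned in sign.

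The 4 members lower in the knockout NK-gated cells became 1 after adjustment for exon length, and 3 with a stricter NK gate or median-of-ratios scaling. The share of measured genes past the mark is given above for that scaling only. For the other alternatives of this paragraph it is not given here, so those counts have no background beside them. Of members between the most and least mature knockout cells, 0 was lower in the main setting, and 1, Ptpn22, was lower with stricter cell filters, the stricter gate, 5 score groups in place of 3, the score on all UMIs or another random thinning (the last chosen after seeing the data). Gating on all UMIs made 1 member, Ptpn6, lower in Ly49-positive control cells (-0.46) and 1 lower in NKG2A or Ly49C/I-positive knockout cells (-0.33).

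With stricter cell filters the dendritic gate had 0 members higher and 0 lower in the control, and 2 higher in the knockout. The shares of measured genes at those filters are not given here. Cells with at most 1 NK marker UMI were also set against NK-gated cells, with values for control and then knockout. In T-gated cells 1 member was higher in each library (39.9% and 26.6% of measured genes) and 3 lower (32.9% and 44.1%). In macrophage-gated cells 2 and 3 members were higher (47.0% and 34.7% of measured genes), and 3 and 2 lower (31.7% and 45%). In dendritic-gated cells 1 was higher in each library (29.0% and 22.6%) and 4 lower (53.4% and 59.7%). With few NK UMIs the T-gated over NK-gated ratio turned to 0.15 for Ptpn11 in the control, and to -0.70 and -0.07 for Ptpn22 in the control and knockout. In the same cells, a choice made after seeing the data, knockout over control gave 4 members lower and 1 higher in T-gated cells, against 51.5% and 25.3% of measured genes. It gave 2 lower (Ptprc and Inpp5d) and 2 higher in macrophage-gated cells, against 51.9% and 22.4%, with Ptpn22 at 1.49 there. These values rest on 1 to 30 UMIs per member and library apart from Ptprc and, in macrophage-gated cells, Ptpn6. The cause of these changes was not tested.

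Shares of cells with a UMI depended on depth. Thinned to 1000 UMIs, they were 90.5% and 72.7% (control and knockout) for Ptprc, 8.02% and 3.43% for Ptpn6, 4.89% and 3.87% for Ptpn11, 10.8% and 8.65% for Inpp5d, and 19.4% and 17.9% for Ptpn22. Not thinned, they were 99.8% and 98.1% for Ptprc, 34.8% and 13% for Ptpn6, 25.5% and 13.5% for Ptpn11, 49.1% and 30.5% for Inpp5d, and 70.2% and 53.2% for Ptpn22. The knockout share was the lower for all 5 members at every depth.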
